A study of Mus musculus with 32 samples.

Results

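The genes followed here are 10 of the 33397 genes in the deposited expression table of mouse gastrocnemius (GAS), a muscle of the calf that the sciatic nerve supplies. They are the 3 genes of the Gadd45 family (Gadd45a, Gadd45b and Gadd45g), the p53 gene Trp53 and its feedback ligase Mdm2, and 5 genes known as p53 targets (Cdkn1a, Eda2r, Ccng1, Phlda3 and Zmat3). They were picked by symbol, after the Ensembl mouse identifiers of the table had been paired with symbols by the GENCODE mouse annotation. Each of the 10 had a row, and each passed the filter on low values.

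Bulk RNA of C57BL/6 GAS muscles was sequenced on 8 days (0, 1, 3, 5, 7, 14, 21 and 28 d), and each of these time points had 4 of the 32 samples. The mice were male and aged 6 to 8 weeks, and the labels name no engineered allele and no drug. The labels give sciatic nerve transection as the treatment at every time point, 0 d included, and the 0 d samples were taken here as the sham, nondenervated muscles of the study. Each sample was whole muscle, so fibres, nerve, vessels and immune cells contribute together. The columns of the later time points name a day and a letter, and those taken as 0 d are named C1 to C4. No column names an animal, so p-values measure the spread between these samples, and nothing in the labels ties a column to a mouse.

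Expression is given in FPKM, in which a gene's fragments are scaled by how long its exons are and by how many fragments the sample held. Turned back into fragments, the samples held 14189241 to 17546714 fragments each. The RNA extraction text of the labels speaks of retinas, while the tissue label says gastrocnemius. Summed over 5 myofibre genes (Ckm, Acta1, Mylpf, Tnnt3 and Myh4), the level lay between 20468 and 40654 FPKM in every sample. Gnat1, the transducin gene of rod photoreceptors, reached at most 0.163 FPKM, so muscle markers were present and this photoreceptor gene was near 0. Among the 3 d samples, sample a stood apart on the first principal component, at -19.4 against 0.75 to 6.25 for the other 3 samples. Its values are given with those of the others, and the count of members called at 3 d was 6 higher and 3 lower with or without it.

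p53 is a transcription factor held at low levels by Mdm2, a ubiquitin ligase whose own gene p53 induces, which closes a negative feedback loop. Under DNA damage and other stresses p53 raises a set of targets that includes Cdkn1a, whose product p21 inhibits cyclin-dependent kinases and holds cells in G1. The Gadd45 genes encode small acidic proteins that bind stress kinases, cyclin B-Cdk1, p21 and DNA demethylation enzymes. Gadd45a and Cdkn1a are known to rise in denervated muscle. Across different models of muscle atrophy, they have been placed downstream of Atf4, Hdac4 or p53.

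A gene was called when its Benjamini-Hochberg adjusted p in limma, fitted over all 22071 genes tested, was under 0.05 and its difference in log2(FPKM + 1) reached 1.5-fold. This scale understates the change of genes with low FPKM. At 1 d, 5 of the 10 members were called higher and 1 lower than at 0 d, against 6.34% and 2.49% of all genes tested. At 3 d these counts were 6 and 3 (13.2% and 6.03% of all genes), and at 5 d they were 6 and 2 (14.9% and 3.86%). At 7 d, 5 members were higher and 2 lower (15.4% and 4.1% of all genes). At 14 d, 4 were higher and 2 lower (14.6% and 3.83%), and at 21 d the counts were again 4 and 2 (11.8% and 3.93%). At 28 d, 4 members were higher and 3 lower (14.2% and 4.1%). Taken as 1 group of 12 samples, 14, 21 and 28 d gave 4 higher and 2 lower members (13.3% and 3.91%). Gadd45a, Cdkn1a, Eda2r and Mdm2 were called higher and Gadd45b lower at every time point. All these comparisons share the 4 samples of 0 d, so their results are not independent of each other.

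**Figure D1:**
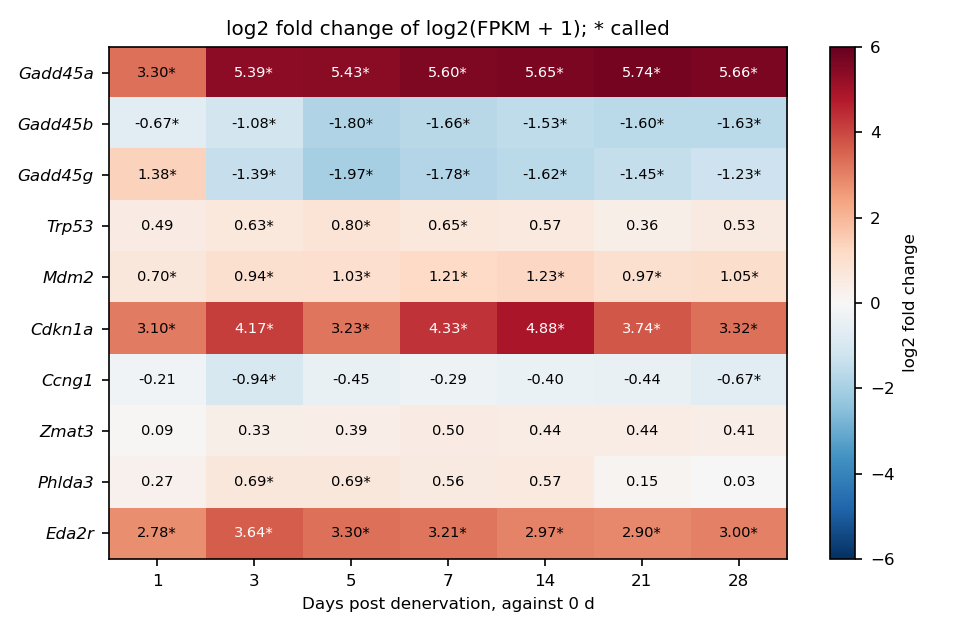
Difference in log2(FPKM + 1) between each time point and 0 d for the 10 genes (rows) at 1 to 28 d (columns), with 4 samples in each group; the colour runs from lower (blue) to higher (red) and an asterisk marks a call. Gadd45a reached 5.74 at 21 d, Gadd45b was negative throughout, and Gadd45g was 1.38 at 1 d and -1.39 at 3 d.

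The scaling of the table bore on the smaller differences. The median difference of the 11943 genes with a mean of at least 1 FPKM was 0.12 at 1 d, 0.20 at 3 d and between 0.24 and 0.32 from 5 d onward, and genes of the mitochondrial genome took 14.5% to 18.2% of fragments at 0 d against 6.70% to 17.1% later. With samples scaled by median ratios, which removes that shift, 4 members were higher and 1 lower at 1 d (4.14% and 4.68% of all genes under that scaling), and 4 were higher and 3 lower at each later time point. Of all genes, 9% were then higher and 9.15% lower at 3 d, 6.7% and 7.68% at 5 d, and 7.15% and 7.92% at 7 d. At 14 d these shares were 6.56% and 7.53%, at 21 d 6.43% and 7.15%, and at 28 d 6.57% and 8.11%. Rescaled to TPM, 6 members were higher and 0 lower at 1 d (12.1% and 2.87% of all genes), 7 were higher and 2 lower at 14 d (30.7% and 3.75%), and 6 were higher and 2 lower at 28 d (28.6% and 4.06%). The members whose calls moved were Trp53, Phlda3, Ccng1, Zmat3, Mdm2 and Gadd45b, and the values under median ratios follow with each gene.

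Gadd45a, which binds the kinase Map3k4 as well as p21, changed most. The gene lies at chr6:67035096-67037457 (GRCm38, minus strand). Its FPKM values were 2.28, 3.30, 6.28 and 3.93 at 0 d and 51.7, 57.3, 39.6 and 37.3 at 1 d. At 3 d they were 195, 181, 209 and 208. Every 1 d sample was above every 0 d sample, and every 3 d sample above every 1 d sample. At 5 d the samples held 188, 212, 209 and 208, at 7 d they held 219, 276, 215 and 210.4, and 14 d gave 225, 216, 272 and 241. They were 219, 259, 273 and 266 at 21 d and 281, 262, 201 and 223 at 28 d. From 3 d onward neighbouring time points overlapped and no sample fell below 181. The ratio of mean FPKM to the 0 d mean of 3.95 ± 1.69 (SD, n = 4) was 11.8 at 1 d, 50.2 at 3 d and 64.4 at 21 d, the highest mean (254 ± 23.9). On the log2 scale the difference from 0 d was 3.30 ± 0.16 (SE) at 1 d (adjusted p = 3.0e-15) and 5.39 ± 0.16 at 3 d (adjusted p = 1.4e-20). Ordered by level, the time points ran 21, 28, 14, 7, 5, 3, 1 and 0 d, and among the first 6 of these no pair of neighbours differed beyond the spread (adjusted p from 0.82 to 1).

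Gadd45b, known as an immediate early gene that acts on p38 and JNK signalling, went the other way. It lies at chr10:80930073-80932204 on the plus strand. It measured 24.9, 24.7, 20.6 and 17.3 FPKM at 0 d, 12.7, 15.6, 11.7 and 13.3 at 1 d and 9.37, 13.0, 8.74 and 8.32 at 3 d. At 5 d the samples held 7.00, 4.24, 4.80 and 6.37, and from 7 to 28 d the 16 samples lay between 4.35 and 9.67. Each denervated group was below the 0 d samples without overlap. The difference was -0.67 ± 0.18 at 1 d (adjusted p = 0.0048) and -1.80 ± 0.18 at 5 d (adjusted p = 2.0e-09), where the 0 d mean was 3.90 times that of 5 d. With median-ratio scaling the 1 d difference was -0.85, and rescaled to TPM it was -0.58 and was not called. In the order of levels, 0 d was above 1 d beyond the spread, while no later pair of neighbours passed the test.

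Gadd45g, the family member most tied to differentiation and growth arrest in development, rose first and then fell. It lies at chr13:51846678-51848468 on the plus strand. Its values were 23.1, 25.1, 39.6 and 33.2 FPKM at 0 d and 76.5, 58.8, 86.6 and 99.4 at 1 d, so the lowest 1 d sample was above the highest 0 d sample. At 3 d they were 7.46, 13.2, 11.5 and 11.5, below every 0 d sample. At 5 d the samples held 6.64, 7.57, 6.16 and 6.88. The means then ran from 8.03 ± 1.49 at 7 d to 12.2 ± 2.33 at 28 d, and the highest of these 16 samples held 14.3. The difference from 0 d was 1.38 ± 0.18 at 1 d (adjusted p = 6.5e-07), -1.39 ± 0.18 at 3 d (adjusted p = 2.7e-07), -1.97 at 5 d and -1.23 at 28 d. From 1 to 3 d alone it fell by 2.77 ± 0.18 (adjusted p = 1.1e-12).

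**Figure D2:**
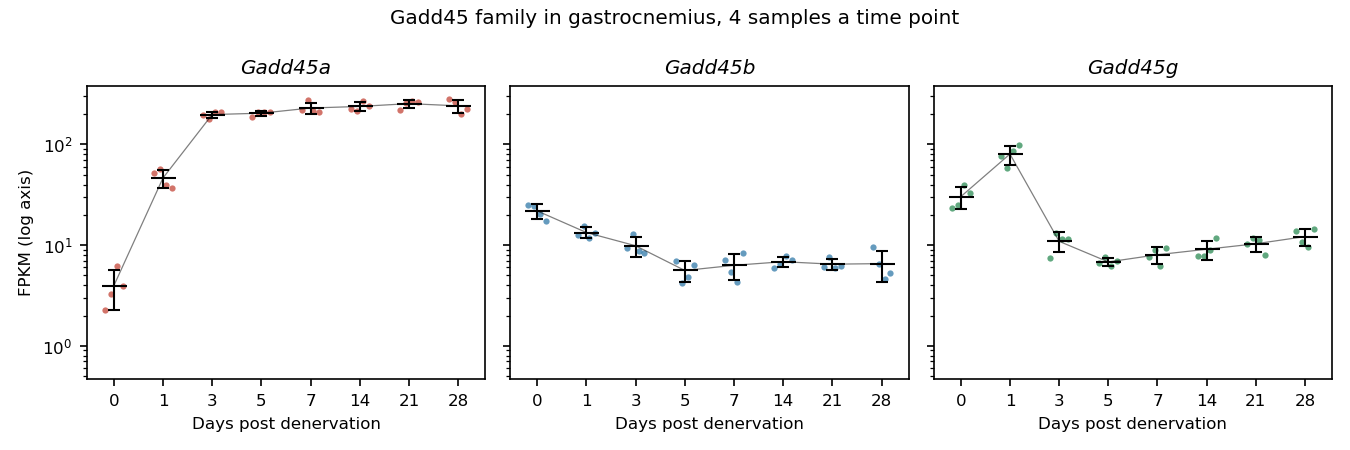
FPKM (log axis) of the 3 Gadd45 genes against days post denervation; each point is 1 sample, the bars are the mean and SD of 4 samples and thin lines join the means. Gadd45a was at 181 FPKM or above in every sample from 3 d onward, Gadd45b fell from a mean of 21.9 to 5.60 at 5 d, and Gadd45g peaked at 80.3 at 1 d.

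The family changed its make-up. Summed FPKM of the 3 genes had a mean of 56.1 ± 7.15 at 0 d. It was 140.1 ± 7.63 at 1 d and 219 ± 11.2 at 3 d, and was highest at 21 d (271 ± 24.0). At 0 d Gadd45g made up 53.5% ± 7.92 of that sum, Gadd45b 39.7% ± 9.66 and Gadd45a 6.85% ± 2.05. At 1 d the Gadd45a share was 33.4% ± 8.32 and that of Gadd45g 57.0% ± 9.65, while the Gadd45b share was 9.56% ± 1.55. At 3 d Gadd45a made up 90.5% ± 2.14, and from 5 to 28 d its mean share lay between 92.8% and 94.2%. The Gadd45a and Gadd45b shares differed from 0 d at every time point (exact two-sided permutation p = 0.0286, the smallest that 4 against 4 samples allow). The Gadd45g share at 1 d did not differ from 0 d beyond the spread (exact permutation p = 0.6), although its level rose.

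**Figure D3:**
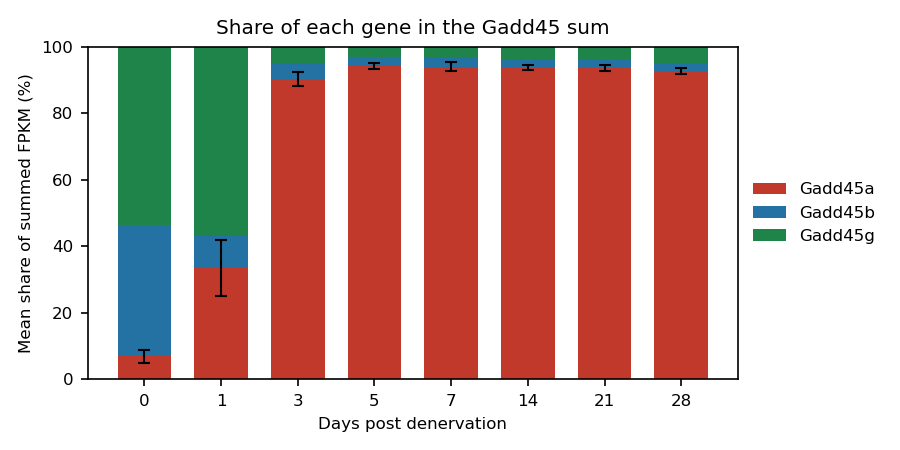
Mean share (%) of Gadd45a, Gadd45b and Gadd45g in their summed FPKM, by days post denervation, from 4 samples a time point; the black bars give the SD of the Gadd45a share. Gadd45a took 6.85% at 0 d, 33.4% at 1 d and 90.5% at 3 d.

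The 250 bases before the RefSeq start of each family member (GRCm38.p6) are shown because the 3 genes took different courses. Bases in capitals match a motif searched on both strands, and positions count back from -1, the last base before the start. Gadd45a is chr6:67037408-67037657 (minus strand), with a match to the p53 half-site at -40 to -31. Gadd45b is chr10:80929841-80930090 (plus strand), with TATAAA at -46 to -41. Gadd45g is chr13:51846425-51846674 (plus strand), with TGATGNAA, read on the other strand, at -101 to -94, CAGCTG, an E-box of the kind myogenic factors bind, at -55 to -50 and TATAAA at -27 to -22.
Gadd45a: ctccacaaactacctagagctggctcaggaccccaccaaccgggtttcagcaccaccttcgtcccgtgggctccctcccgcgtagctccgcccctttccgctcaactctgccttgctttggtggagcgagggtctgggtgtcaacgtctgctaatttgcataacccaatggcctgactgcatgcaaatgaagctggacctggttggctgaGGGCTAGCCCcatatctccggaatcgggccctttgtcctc
Gadd45b: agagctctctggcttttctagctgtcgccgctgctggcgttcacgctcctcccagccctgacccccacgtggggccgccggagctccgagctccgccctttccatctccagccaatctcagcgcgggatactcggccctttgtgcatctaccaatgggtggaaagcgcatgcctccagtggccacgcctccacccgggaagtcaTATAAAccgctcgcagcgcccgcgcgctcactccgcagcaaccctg
Gadd45g: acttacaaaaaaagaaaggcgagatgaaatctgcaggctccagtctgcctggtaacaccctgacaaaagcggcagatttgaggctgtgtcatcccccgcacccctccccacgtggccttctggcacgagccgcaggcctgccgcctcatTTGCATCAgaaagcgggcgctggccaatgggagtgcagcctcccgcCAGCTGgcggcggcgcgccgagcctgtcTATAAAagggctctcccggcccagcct
Among the 32851 promoters of the same length, 7.13% held a p53 half-site, 12.4% TATAAA, 13.0% CAGCTG and 3.45% TGATGNAA. The searches for TGANTCA (6.75% of promoters), TGACGTCA (1.55%), GTAAACA (3.17%), the MEF2 site (2.92%) and the NF-kappaB site (3.90%) had no match in these 3 windows. Half-site matches also lay in the windows of Trp53 (-75 to -66), Mdm2 (-186 to -177) and Ccng1 (-185 to -176), and none in those of Gadd45b, Gadd45g, Eda2r and Phlda3. Mdm2 was called higher at every time point, as Gadd45a was. Trp53 was called higher at 3, 5 and 7 d only, and Ccng1 was called lower at 3 and 28 d. A match describes the letters of a window and shows no binding.

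Trp53, the p53 gene itself (chr11:69580359-69591873), changed little beside Gadd45a. Its mean was 5.08 ± 0.69 FPKM at 0 d (4.32 to 5.90), 7.49 ± 0.60 at 1 d, 8.41 ± 1.40 at 3 d and 9.57 ± 0.64 at 5 d (8.89 to 10.1), and from 7 to 28 d the means lay between 6.78 and 8.49. No denervated sample at any time point was below the highest 0 d sample. Trp53 was called higher at 3 d (0.63 ± 0.09), 5 d (0.80, adjusted p = 7.5e-09) and 7 d (0.65), with adjusted p also under the threshold but less than 1.5-fold at the other time points (0.36 to 0.57). Median-ratio scaling gave 0.43, 0.47 and 0.32 at 3, 5 and 7 d, and none of these was called. Without 0 d sample 1 the 3 d and 7 d differences were 0.56 and 0.58, without 3 d sample d that of 3 d was 0.54, and these were not called. Without 0 d sample 4 those of 14 and 28 d were 0.63 and 0.60 and were called, as was that of 14 d without 0 d sample 3 (0.59).

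Mdm2, the ligase that targets p53 for destruction (chr10:117688875-117710758), was higher at every time point. Its samples held 10.5, 10.3, 12.2 and 11.8 FPKM at 0 d, 18.9, 17.5, 20.4 and 18.5 at 1 d, and 30.5, 30.5, 25.4 and 24.2 at 14 d. No denervated sample fell below 17.5. The difference was 0.70 ± 0.09 at 1 d (adjusted p = 2.8e-07) and 1.23 ± 0.09 at 14 d (adjusted p = 2.4e-12), a ratio of means of 1.68 and 2.47. With median-ratio scaling it was 0.53 at 1 d, not called, and 0.85 at 14 d. After 1 d the neighbouring levels did not differ by 1.5-fold.

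Cdkn1a, which encodes p21 (chr17:29090976-29100727), rose at every time point but not steadily. Its samples held 2.83, 3.32, 3.58 and 3.09 FPKM at 0 d, 37.6, 32.6, 35.4 and 34.9 at 1 d, and 55.0, 68.5, 84.9 and 95.6 at 3 d. These 3 groups did not overlap. At 5 d the values were 32.3, 37.7, 41.6 and 42.4, all below every 3 d sample. They were 94.9, 111, 72.5 and 63.7 at 7 d and 165, 142, 99.1 and 98.2 at 14 d, the highest mean (126 ± 32.8). At 21 d they were 55.1, 57.6, 58.5 and 49.3, and at 28 d 43.0, 45.3, 36.0 and 39.3. The course thus had a peak at 3 d, a low at 5 d and a second peak at 14 d. The difference from 0 d was 3.10 ± 0.16 at 1 d (adjusted p = 1.7e-14), 4.17 at 3 d, 3.23 at 5 d, 4.88 at 14 d (adjusted p = 2.2e-19) and 3.32 at 28 d. The turns passed the test too: it rose by 1.06 ± 0.16 from 1 to 3 d (adjusted p = 6.3e-06), fell by 0.94 ± 0.16 from 3 to 5 d (adjusted p = 7.0e-05), rose by 1.11 ± 0.16 from 5 to 7 d (adjusted p = 0.00015), then fell by 1.14 ± 0.16 from 14 to 21 d (adjusted p = 0.00012). The difference between 7 and 14 d (0.55, adjusted p = 0.072) was not called, but it was without 7 d sample b (0.68), 14 d sample c (0.65) or 14 d sample d (0.65). The 7 d and 14 d groups overlapped.

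Cdkn1a has 2 RefSeq starts in the promoter table. The window of the upstream start, chr17:29090729-29090978 (plus strand), held p53 half-site matches at -73 to -64 and -51 to -42, in capitals below, and that of the downstream start, chr17:29093519-29093768, had no motif match. FPKM per gene does not tell transcripts of the 2 starts apart.
Cdkn1a, upstream start: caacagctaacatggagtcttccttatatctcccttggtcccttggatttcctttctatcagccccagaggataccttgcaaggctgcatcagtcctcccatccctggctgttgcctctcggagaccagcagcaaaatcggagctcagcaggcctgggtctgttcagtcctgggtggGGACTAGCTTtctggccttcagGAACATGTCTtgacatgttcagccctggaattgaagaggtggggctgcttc

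Eda2r, the receptor for ectodysplasin A2 and a known p53 target (chrX:97333840-97377216), rose early and stayed high. Its values were 6.42, 7.23, 10.3 and 9.94 FPKM at 0 d, 55.4, 62.0, 67.8 and 68.0 at 1 d, and 125, 83.1, 126 and 136 at 3 d. At 5 d they were 90.0, 93.3, 98.4 and 83.2 and at 7 d 82.5, 99.2, 85.8 and 74.6. In the last 3 time points the lowest of 12 samples held 62.4, the median was 71.8 and the highest held 79.8. No later sample fell to the 0 d range, and 3 of the 4 samples at 3 d were above all others. The difference from 0 d was 2.78 ± 0.13 at 1 d (adjusted p = 1.1e-15), 3.64 ± 0.13 at 3 d (adjusted p = 3.6e-19) and 3.00 at 28 d. The step from 1 to 3 d was 0.86 ± 0.13 (adjusted p = 3.1e-06), while the lower level at 5 d was not separable from 3 d (-0.34, adjusted p = 0.051). Its promoter, chrX:97377210-97377459 (minus strand), is shown because the gene rose as early as Gadd45a and Cdkn1a. The window held GTAAACA, the letters FoxO factors bind, read on the other strand at -125 to -119. It also held TATAAA at -58 to -53 and no p53 half-site match. The Mdm2 window held GTAAACA too (-153 to -147), with CAGCTG at -233 to -228.
Eda2r: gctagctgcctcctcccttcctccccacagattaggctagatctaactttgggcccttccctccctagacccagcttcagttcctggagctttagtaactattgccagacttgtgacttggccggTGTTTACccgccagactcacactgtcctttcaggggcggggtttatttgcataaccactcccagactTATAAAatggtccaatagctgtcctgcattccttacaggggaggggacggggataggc

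Ccng1 and Phlda3, both abundant at 0 d, took courses of their own. Ccng1, which encodes cyclin G1 (chr11:40748552-40755311), held 371, 336, 330.1 and 409 FPKM at 0 d and 191, 171, 187 and 201 at 3 d, without overlap, and 213, 214, 269.7 and 215 at 28 d. It was called lower at 3 d (-0.94 ± 0.11, adjusted p = 1.5e-08) and again at 28 d (-0.67 ± 0.11, adjusted p = 5.3e-06). At 5, 7, 14 and 21 d its differences of -0.45, -0.29, -0.40 and -0.44 were under 1.5-fold, but with median-ratio scaling they were -0.84, -0.67, -0.80 and -0.74 and were called, and rescaled to TPM that of 28 d was -0.49 and was not. Phlda3, whose product competes with Akt for membrane lipids (chr1:135766119-135769136), held 181, 185, 203 and 172 at 0 d, 329, 289.6, 289 and 295 at 3 d, and 279, 304, 306 and 310.3 at 5 d. It was called higher at 3 d (0.69 ± 0.10, adjusted p = 2.4e-06) and 5 d (0.69 ± 0.10), and at 21 and 28 d its groups overlapped 0 d (0.15 and 0.03). Median-ratio scaling gave 0.46 and 0.30 at 3 and 5 d, not called, and -0.16 and -0.35 at 21 and 28 d, so its direction there depended on the scaling. At 7 d (0.56) it was called without 0 d sample 3 (0.60), 7 d sample c (0.62) or 7 d sample d (0.62), and at 14 d (0.57) without 0 d sample 3 (0.61) or 14 d sample a (0.63).

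Zmat3, which encodes an RNA-binding zinc finger protein (chr3:32334792-32366014), was the member with the lowest level. Its mean was 1.00 ± 0.13 FPKM at 0 d and 1.13 ± 0.21 at 1 d. It was 1.53 ± 0.35 at 3 d and highest at 7 d, at 1.83 ± 0.25. From 5 d onward each sample was above every 0 d sample. The differences of 0.33 to 0.50 from 3 d onward had adjusted p between 4.1e-05 and 0.0035 but stayed under 1.5-fold on this scale, where a pseudocount of 1 equals the level of the gene at 0 d. With a pseudocount of 0.1 they were 0.64 to 0.80 from 5 d onward, and with fragments tested in limma-voom 0.60 to 0.86 from 3 d onward, and these were called. With median-ratio scaling they were smaller, 0.17 to 0.28 from 3 d onward, and none was called. Rescaled to TPM they were 0.67 to 0.82 from 5 d onward and were called.

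**Figure D4:**
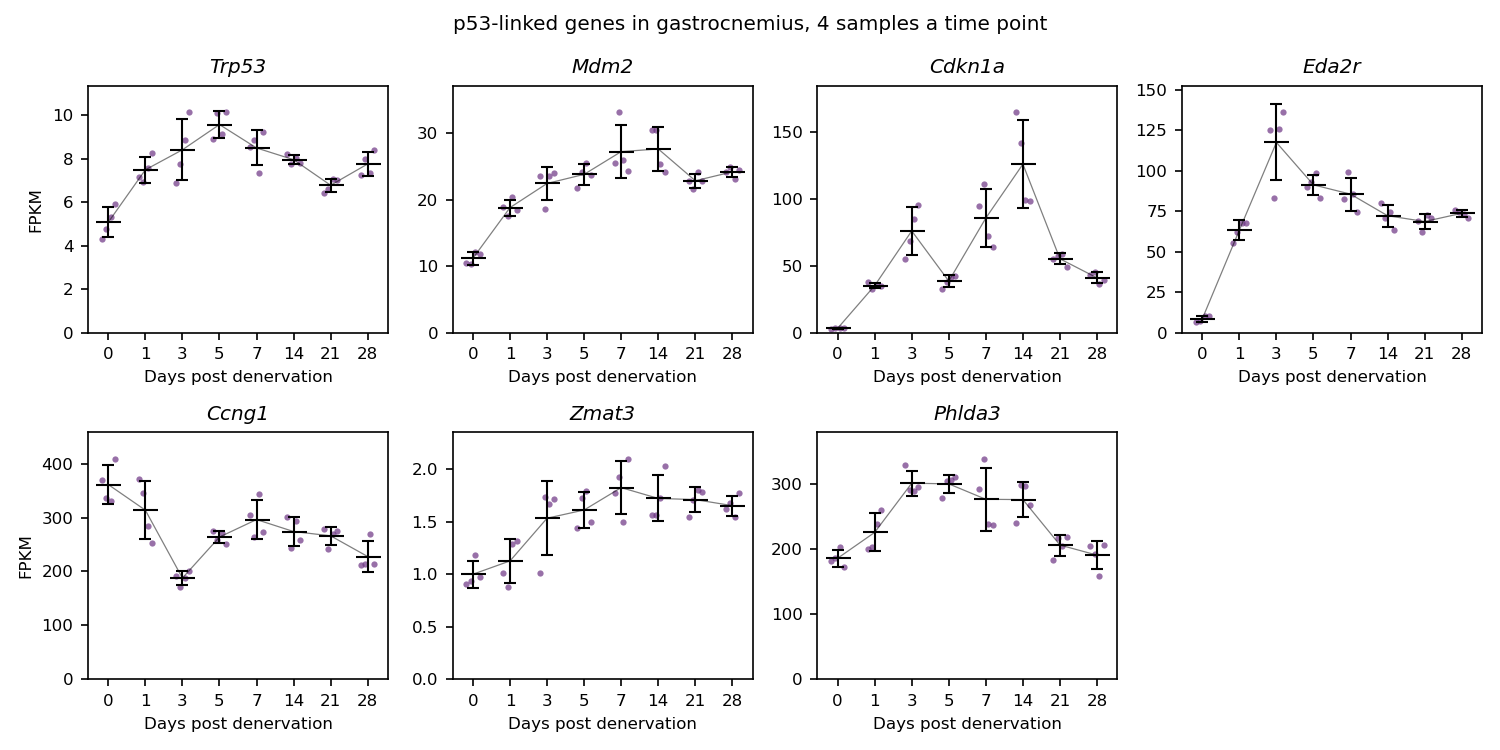
FPKM (linear axes from 0, 1 scale per gene) of Trp53, Mdm2, Cdkn1a, Eda2r, Ccng1, Zmat3 and Phlda3 against days post denervation; points are samples, bars the mean and SD of 4 samples. Cdkn1a has peaks at 3 d (76.0) and 14 d (126) with a low at 5 d (38.5), and Ccng1 is lowest at 3 d (188).

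Between neighbouring time points, 5 members were called from 1 to 3 d (10.6% of all genes in either direction). These were Gadd45a (2.09), Cdkn1a (1.06) and Eda2r (0.86), which rose, and Gadd45g (-2.77) and Ccng1 (-0.72), which fell. From 3 to 5 d, 3 were called (5.76% of all genes), each lower: Cdkn1a (-0.94), Gadd45b (-0.72, adjusted p = 0.0034) and Gadd45g (-0.59, adjusted p = 0.019). The last of these lay at the 1.5-fold limit and was lost without 3 d sample b (-0.49), 3 d sample c (-0.55), 3 d sample d (-0.55), 5 d sample a (-0.58) or 5 d sample c (-0.54). From 5 to 7 d Cdkn1a alone was called (0.657%), and likewise from 14 to 21 d (0.453%). From 7 to 14 d 0 members were called by limma (0.634%), with 1 at an unadjusted p under 0.05 and 0 by limma-voom. From 21 to 28 d 0 members were called (0.199%), with 2 at an unadjusted p under 0.05 and 0 by limma-voom.

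The other genes of the pathway were read from fixed lists. The shares of all genes to read them against were 6.34% higher and 2.49% lower at 1 d, and 11.8% to 15.4% higher and 3.83% to 6.03% lower from 3 d onward. With median-ratio scaling they were 4.14% and 4.68% at 1 d, and 6.43% to 9% and 7.15% to 9.15% later. Of 32 other p53 target genes, all tested, 7 were called higher and 2 lower at 1 d, 8 and 2 at 3 d, 6 and 2 at 5 d, 7 and 2 at each of 7, 14 and 21 d, and 9 and 2 at 28 d. The share called higher was 21.9% at 1 d, 18.8% at 5 d and 28.1% at 28 d. The median difference of the 32 was 0.29 at 1 d beside 0.03 for all genes tested, and 0.12 at 7 d beside 0.13. With median-ratio scaling 5 to 7 were higher and 2 or 3 lower at each time point, and the median was 0.23 at 1 d, 0.17 at 3 d and between -0.01 and 0.02 from 5 d onward. Btg2, an antiproliferative gene, rose from 6.83 ± 0.42 FPKM to 69.5 ± 11.8 at 1 d (3.16, adjusted p = 1.4e-18) and was at 15.7 at 28 d. Ddit4, an inhibitor of mTORC1 signalling, went from 7.02 ± 0.62 to 64.3 ± 31.7 at 1 d (2.90), with samples from 36.9 to 100.1. Cd82, a tetraspanin of the cell surface, went from 4.42 ± 0.44 to 8.35 ± 1.30 at 1 d and 24.2 ± 6.39 at 3 d. Its mean was highest at 5 d, at 42.8 ± 2.34 (3.02). Tigar, which lowers glycolytic flux, fell from 42.9 ± 4.91 to 5.69 ± 0.89 at 28 d (-2.72, adjusted p = 4.6e-17). It was called lower at 1 d too (27.6 ± 1.27, a difference of -0.61), but not at 3 d, when its mean was 42.9. Ephx1, an epoxide hydrolase, and Polk, a translesion DNA polymerase, fell by 1.17 and 1.05 at 3 d.

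**Figure D5:**
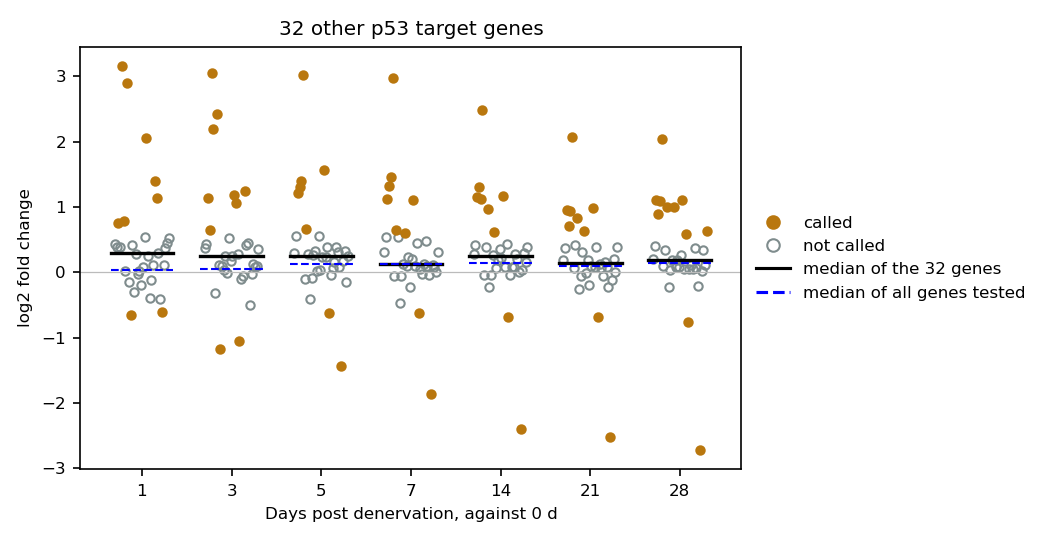
Difference in log2(FPKM + 1) from 0 d for 32 other p53 target genes at each time point; filled points were called, open points were not, the black line is their median and the dashed blue line the median of all genes tested. Between 6 and 9 genes were called higher and 2 lower at each time point, while the medians stayed between 0.12 and 0.29 on this scale and between -0.01 and 0.02 from 5 d onward with median-ratio scaling.

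Of 15 p53 regulators, 1 was called higher at 1 d and at 5 d, and 2 at each of 7, 14, 21 and 28 d, with 1 lower at 28 d. The shares called higher, 6.67% at 1 d and 13.3% from 7 d onward, were near those of all genes, and with median-ratio scaling at most 1 was higher and 1 lower at any time point. Mdm4, the partner of Mdm2 that inhibits p53, was at 4.43 ± 0.68 FPKM at 0 d and 18.1 ± 7.13 at 14 d (1.75, adjusted p = 1.3e-09), with 14 d samples from 11.4 to 26.8. Trp53bp1, a DNA break response protein, rose from 1.48 to 3.55 at 5 d (0.88), the acetyltransferase gene Kat5 from 4.33 to 7.00 at 1 d (0.59, and 0.44 with median-ratio scaling, not called), and Trim24, a ligase for p53, fell by 0.60 at 28 d.

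Of 17 genes of G1 control, where p21 acts (CDK inhibitors, cyclins, CDKs, Rb1, E2f1 and Pcna), 1 was higher at 1 d, 5 were higher and 2 lower at 3 d, 6 and 1 at 5 d, 4 and 1 at 7 d, and 2, 2 and 4 were higher at 14, 21 and 28 d. The share called higher was near that of all genes at 1 d (5.88%) and at 14 and 21 d (11.8%). It was 29.4% at 3 d, 35.3% at 5 d and 23.5% at 7 and 28 d. With median-ratio scaling 0 were higher at 1 d, 4 were higher and 3 lower at 3 d, and 4 and 1 at 5 d. Under that scaling 1 was higher and 1 lower at 7 d, and 1 was higher at each of 14, 21 and 28 d. Rb1, the retinoblastoma gene, rose from 4.02 ± 0.34 to 31.9 ± 2.98 FPKM at 5 d (2.71, adjusted p = 1.5e-16). Ccnd1, which encodes cyclin D1, went from 3.07 to 7.92 ± 3.66 at 5 d (1.02, adjusted p = 0.0095) and the S-phase factor gene E2f1 from 0.423 to 1.70 (0.91). The inhibitor genes Cdkn1c and Cdkn2d fell by 0.85 at 5 d and by 0.61 at 3 d.

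Of 13 genes for Gadd45 partners, 1 was lower at 1 d, 3 were higher and 1 lower at 3 d, 2 and 1 at 5 d, 1 was lower at 7 and 14 d, and 2 were lower at 21 and 28 d. The share called higher was 23.1% at 3 d and 15.4% at 5 d, the latter near that of all genes, and 2 of 13 lower is 15.4%. With median-ratio scaling 3, 2, 4 and 3 were lower at 7, 14, 21 and 28 d. Map2k6, a kinase that activates p38, fell from 10.1 ± 1.19 to 1.13 ± 0.26 FPKM at 3 d (-2.38, adjusted p = 2.9e-16), and Mapk14, the p38-alpha gene, fell from 33.4 ± 2.67 to 19.2 ± 1.40 at 28 d (-0.77). Ccnb1 and Cdk1, the cyclin B1 pair of mitosis, rose from 0.0759 and 0.0986 to 1.20 and 1.11 at 5 d, and the JNK1 gene Mapk8 rose by 0.62 at 3 d (0.43 with median-ratio scaling, not called).

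Of 6 genes for the Eda2r ligand and the noncanonical NF-kappaB pathway, 3 were higher at 1 d, 5 at 3 and 5 d, 4 at 7 d, 5 at 14 d and 3 at 21 and 28 d (with median-ratio scaling 2, 4, 4, 3, 2, 1 and 1). The share called higher was 50% or more at each time point. Their median difference was 1.28 at 5 d (0.98 with median-ratio scaling) beside 0.13 for all genes tested. Nfkb2, which encodes the p100 precursor, rose from 2.74 ± 0.63 to 23.6 ± 1.29 FPKM at 5 d (2.73), its partner Relb from 1.99 to 10.3 (1.91) and Map3k14, the NIK kinase gene, from 1.20 to 5.74 (1.61). From 3 to 5 d only Nfkb2 of the 6 was called (0.77, adjusted p = 0.00043).

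Of 9 genes of the denervation response, 5 were higher at 1 d, 8 at 3 d, 7 at 5 d, 7 higher and 1 lower at 7 d, 6 higher at 14 and 21 d, and 6 higher and 1 lower at 28 d. The share called higher ran from 55.6% at 1 d to 88.9% at 3 d. With median-ratio scaling the higher counts were the same, and 1 was lower at 5, 7 and 14 d and 2 at 21 and 28 d. Myog, the myogenic factor myogenin, rose from 1.97 ± 0.46 to 215 ± 34.5 FPKM at 3 d (6.18, adjusted p = 3.3e-24), the acetylcholine receptor gene Chrna1 from 3.56 to 203 at 14 d (5.49), and Chrng, its embryonic subunit, from 0.0394 to 57.7 at 28 d (5.80). Atf4, the stress factor, rose from 72.6 to 198 at 1 d (1.43, adjusted p = 3.5e-13) and was called lower than at 0 d at 7 d (-0.63). The atrophy ligase gene Trim63 rose from 91.4 ± 13.3 to 1264 ± 219 at 3 d (3.77, adjusted p = 9.2e-19) and was called lower than at 0 d at 28 d (-0.73).

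Genes whose mean course over the 8 time points was most like a member were sought among the 11943 genes with a mean of at least 1 FPKM. For Gadd45a they were Tlr4 (Pearson's r = 0.996), Lgmn (0.993), Musk (0.992), Tut7 (0.992) and S100a8 (0.991). For Cdkn1a they were Thop1 (0.992), Pgs1 (0.992), Rnf103 (0.978), Slc11a1 (0.972) and Kdm1a (0.970), and for Eda2r Polr1e (0.993), Rnf6 (0.992), Avl9 (0.991), Ftsj3 (0.991) and Actr2 (0.990). Musk, the receptor kinase of the neuromuscular junction, went from 9.75 FPKM at 0 d to 62.0 at 3 d, and Tlr4, a receptor of innate immunity, from 2.05 to 8.92. S100a8, which is also among the 8 leukocyte markers summed below, went from 0.213 to 16.8. Among the members themselves, Gadd45a was most like Mdm2 (0.968) and least like Gadd45b (-0.939), and Cdkn1a was most like Mdm2 (0.950). These coefficients run over 8 group means that share their libraries, and a rise from 0 d alone makes courses alike.

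Other cells of the muscle moved over the same days, and in bulk tissue fewer cells of a type and less RNA per cell cannot be told apart. Summed over 8 leukocyte markers, the level was 112 to 161 FPKM at 0 d, 168 to 279 at 1 d, 269 to 837 at 3 d and 324 to 1020 at 7 d, with 6 of 8 called higher at 3 d. Lyz2 made up most of this sum, with means of 118 at 0 d and 500 at 7 d. The means of the sum on these days were 139 and 613. Cd68, a macrophage marker, went from 6.28 ± 0.89 FPKM at 0 d to 123 ± 26.7 at 3 d, while the T cell marker Cd3e was at 0 in the 4 samples of 3 d. Among the 4 samples of a time point, that with the highest leukocyte sum held the highest Gadd45a at 1 of the 7 denervated time points and the lowest at 3, and for Cdkn1a these counts were 1 and 2. It held the highest Gadd45g at 5 of the 7 and the highest Gadd45b and Zmat3 at 4. It held the lowest Ccng1 at 5 of the 7 and the lowest Mdm2 at 4. For Eda2r it held the lowest at 5 and the highest at 2. It held the highest Trp53 at 3 and the lowest at 1, and the highest Phlda3 at 2 and the lowest at 1. These counts were not tested. Summed over Mki67, Top2a and Birc5, markers of proliferating cells, the level was 0.426 to 0.697 at 0 d, 0.356 to 0.696 at 1 d, when Gadd45a, Cdkn1a and Eda2r were already called higher, 1.40 to 8.67 at 3 d and 1.16 to 1.61 at 14 d, when Cdkn1a was highest. The myofibre sum fell from 38212 to 40654 at 0 d to 22556 to 26195 at 3 d and 20468 to 23695 at 28 d. Mbp, a myelin gene of Schwann cells, was at 11.9 to 27.1 at 0 d. It was at 4.32 to 22.4 at 1 d and 2.75 to 6.29 at 3 d, and was called lower on both days. Sox10, a transcription factor of these cells, did not move with it and was called higher at 5, 7, 14 and 28 d (from 1.58 to 4.39 at 14 d). Sums of endothelial markers went from 75.4 to 87.5 at 0 d to 45.2 to 65.2 at 3 d. Those of fibro-adipogenic markers were 349 to 456 at 0 d, 228 to 546 at 3 d and 487 to 585 at 5 d. At 5 d Col3a1 (1.73) and Col1a1 (1.09, and 0.70 with median-ratio scaling, not called) were called higher. Pdgfra and Dcn, the other markers of that list, were not called at 5 d. Sums of adipocyte markers overlapped 0 d (18.4 to 48.5) at every time point, although Plin1 was called lower at 3 d (-1.31, adjusted p = 0.016). Of the satellite cell markers, Myf5 rose from 1.22 to 3.86 at 14 d, while Pax7 was at 0.606 and 0.709 and was not called. The part of these cells in the values of the 10 genes was not tested.

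Some reads could belong to other genes. Gadd45a shares 337 exonic bases with E230016M11Rik on the opposite strand, which stayed between 0.0656 and 0.501 FPKM in every sample (4 to 8 fragments at 0 d beside 62 to 169 for Gadd45a, and 10 to 32 later beside 1085 to 8496). Cdkn1a shares 273 with AC167363.2, which reached at most 1.35 FPKM (at most 1 fragment at 0 d beside 155 to 194 for Cdkn1a, and 3 to 20 later beside 1781 to 10267). Whether the counting used strand is not given in the sources used here, so reads in these overlaps cannot be assigned. Of stretches of 100 bases, Gadd45a shares 240 of 1958 with E230016M11Rik and Cdkn1a 163 of 3529 with AC167363.2, each on the opposite strand. Trp53 shares 7 of 4407 with its pseudogene Trp53-ps, Mdm2 3 of 5522 with Cltc, and Cdkn1a between 5 and 11 of 3529 with each of Calcoco1, Cybrd1, Syt11, Tmem214 and Trim27. Gadd45b, Gadd45g, Ccng1, Eda2r, Phlda3 and Zmat3 share none with another gene.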

How the data were processed

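RNA from 32 GAS samples was sequenced, 4 at each of 8 time points. The authors deposited 1 table of FPKM values for 33397 genes, and the submitters' processing notes name CASAVA, HISAT2 2.1.0, DESeq2 and GRCm38 without their roles. The counter, the annotation and the use of strand are not given in the sources used here. Symbols, coordinates and merged exon lengths came from GENCODE mouse release M21 (33356 genes matched), and between 99.3% and 99.4% of values under 200 fragments came out whole to within 0.02.

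Columns of the later time points were assigned by the day in their names. Columns C1 to C4 name no day and were taken as 0 d, the time point that remained. In all, 0 columns were left unused. Replicates were compared first: the chi-square per degree of freedom over genes was 3.76 to 60.4 for the 48 replicate pairs, so no pair looked like repeats of 1 library. log2(FPKM + 1) was fitted for all samples with limma 3.58.1 (lmFit, and eBayes with a variance trend) in R 4.3.3, over 22071 genes with at least 0.1 FPKM in at least 4 samples. A call took 1.5-fold and an adjusted p (Benjamini-Hochberg) under 0.05. Shares of the Gadd45 sum were compared by exact two-sided permutation in scipy 1.17.1, and figures used matplotlib 3.10.9. This fit was first tested on simulated data.

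The 10 genes and all lists were chosen with earlier results of these data known. From each list up to 3 higher and 3 lower genes were named, those with the largest called change at any time point. For likeness, the 5 genes with the highest Pearson's r over group means were named. Promoter sequences came from RefSeq (GRCm38.p6), where 9 of the 10 genes had an entry. Alternatives covered the pseudocount, the filters, 3 other scalings, the variance trend, the samples in the fit, limma-voom on recovered fragments, the fold threshold and leaving out each sample. Protein, histology and knockout data of the study were not analysed here. Of the photoreceptor markers only Gnat1 is given, chosen after its values were seen, and 2 Schwann cell markers are not reported here.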

Additional observations from a re-analysis of the deposited data

Results flagged for a closer look

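Each gene at each time point gave a group of 4 samples, 80 in all, and in 6 of them the highest or lowest value lay far outside the other 3. Chance alone flags about 1 in 20 groups, or 4 here. Gadd45a had a low sample at 5 d (188 FPKM against 208 to 212) and a high one at 7 d (276 against 210.4 to 219). Mdm2 had a low sample at 3 d (18.7 against 23.5 to 24.1), and Ccng1 a high one at 28 d (269.7 against 213 to 215). At 3 d the sample that stood apart on the first principal component had the low Zmat3 value (1.01 against 1.67 to 1.74) and the high Phlda3 value (329 against 289 to 295). In that sample the proliferation marker sum was 1.40 FPKM against 5.28 to 8.67, and the leukocyte sum was 269 against 413 to 837. The part of these in both values was not tested.

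The difference from 0 d changed between neighbouring time points in 10 cases by the limma test of the step itself. From 1 to 3 d these were Gadd45a (2.09, adjusted p = 2.2e-11), Gadd45g (-2.77, adjusted p = 1.1e-12), Cdkn1a (1.06), Eda2r (0.86) and Ccng1 (-0.72), and from 3 to 5 d Cdkn1a (-0.94), Gadd45b (-0.72) and Gadd45g (-0.59, between -0.49 and -0.58 and not called without 3 d sample b, c or d or 5 d sample a or c). Cdkn1a also turned from 5 to 7 d (1.11, adjusted p = 0.00015) and from 14 to 21 d (-1.14, adjusted p = 0.00012).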

How the results depend on the processing

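Across the alternatives other than leaving out samples, 136 counts of members called stayed within 1.5 times the reported count and 4 did not. Those 4 moved without the fold threshold, which admits smaller differences: 10 members at 14 d (7 higher and 3 lower, beside 38% and 9.25% of all genes without that threshold), 10 for 14, 21 and 28 d together (7 higher and 3 lower, beside 40.8% and 11.2%), 8 from 1 to 3 d (30.9% of all genes in either direction) and 2 from 14 to 21 d (1.61%). Leaving out 1 sample at a time gave counts of 8 to 9 at 3 d, 6 to 8 at 7 d, 6 to 8 at 14 d, 7 to 8 at 28 d and 2 to 3 from 3 to 5 d, and moved the count by over 1.5 times from 7 to 14 d only, between 0 and 1: Cdkn1a was called without 7 d sample b (0.68), 14 d sample c (0.65) or 14 d sample d (0.65). Of the differences of single genes, 1326 kept their side of the threshold, 60 gained a call and 14 lost one, and no called value changed direction. The losses were Trp53 at 3, 5 and 7 d, Phlda3 at 3 and 5 d and Mdm2 at 1 d with both median-ratio scaling and quantile normalization, and Gadd45b at 1 d (-0.58) and Ccng1 at 28 d (-0.49) with TPM. With TPM, Trp53 was called at 1 d (0.64), 14 d (0.82) and 28 d (0.75), Phlda3 at 7 d (0.75) and 14 d (0.77), and Zmat3 from 5 d onward (0.67 to 0.82). The cause of these moves was not tested. No paired analysis was possible because the columns of the later time points carry letters that no label ties to a numbered sample, and different mice were killed at each time point. A bulk FPKM table cannot place a value in a cell type.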
